A study of Mus musculus with 8 samples.

Results

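The DnaJ co-chaperones examined here are the genes with a symbol of the form Dnaja, Dnajb or Dnajc and a number, without Dnajb9, Dnajb11 and Dnajc3, which belong to the unfolded protein response of the endoplasmic reticulum. This gave 42 genes of the 19938 that the array measured under a single gene symbol. They were followed in myocardium of male CH3 mice, 8 to 10 weeks old and 25 to 30 g in weight, in 2 groups of 4. The DJ-1 mice were given recombinant DJ-1 protein, and the placebo mice PBS (phosphate-buffered saline), 1 hour before ligation of the left anterior descending artery for 45 minutes. All 8 hearts were then reperfused for 2 hours, so both groups carry the injury and no uninjured heart was compared. DJ-1, the product of Park7, protects cells from oxidative damage. The comparison asks whether transcripts of the family differed in reperfused myocardium after DJ-1.

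A J protein carries a J domain, the fold that docks on an HSP70 chaperone and starts its ATP hydrolysis, so that HSP70 closes on a client protein. Class A proteins resemble bacterial DnaJ, class B proteins share the J domain and a glycine-rich region, and class C proteins have little in common beyond the J domain and place HSP70 at particular sites such as the mitochondrial import motor, vesicles or the spliceosome. Some genes of classes A and B are induced by heat shock factors together with the inducible HSP70 genes, and in heart muscle the family takes part in protein quality control at the sarcomere and in mitochondrial protein import.

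Values are RMA expression values on the log2 scale, so a difference of 1 is a doubling, and the values of different genes come from different probes and do not rank their transcripts. The tissue carried its labelled identity: 10 of 10 ventricular cardiomyocyte markers had means between 11.5 and 13.9. Olfactory receptor genes, which heart hardly transcribes, served as a guide to background. A mean above the 95th percentile of those receptors (4.74) was found for 35 of the 42 DnaJ genes and for 13693 of all 19938 genes. The 7 DnaJ genes at or below this level were Dnajb3, Dnajb7, Dnajb13, Dnajc5b, Dnajc5g, Dnajc6 and Dnajc22. Array medians were 5.28 to 5.35 in the DJ-1 group and 5.25 to 5.29 in the placebo group, and DJ-1 hearts 3 and 4 stood apart on the first principal component of all genes, at 19.6 and 23.5 against -15 to 5.31 in the other 6 hearts. Of the neutrophil markers, 10 of 10 averaged higher in DJ-1 hearts, where 52.5% of all genes did, and 9 lay above the background level. The median difference of these markers, DJ-1 minus placebo, was 0.79. Their array means overlapped, from 5.60 to 7.30 in DJ-1 hearts and from 4.77 to 7.06 in placebo hearts. Their part in the results was not tested. In tissue RNA, a change in the number of cells of a type and a change in RNA per cell cannot be told apart.

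Of the 42 DnaJ genes, 0 reached an adjusted p of 0.05 between the groups in limma, and neither did any other gene (0% of 19938 genes). The smallest adjusted p among the members was 0.824. At an unadjusted p under 0.05, 3 members stood higher in DJ-1 hearts (Dnajc17, Dnajb3 and Dnajb13) and 0 lower, which is 7.14% of the family against 5.99% of all genes (3.63% higher and 2.36% lower). Differences, given as DJ-1 minus placebo, ran from -0.18 for Dnajc10 to 0.42 for Dnaja1, with 26 members higher (61.9%, against 52.5% of all genes) and 16 lower. Their median was 0.022, and the median over all genes was 0.0082. The count of higher members depended on the scaling of the arrays: 28 of 42 with quantile normalization or cyclic loess, and 18 of 42 with each array centred on its median. The median standard error (SE) of a member was 0.11 and the median 95% confidence interval reached 0.24 to each side.

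**Figure D1:**
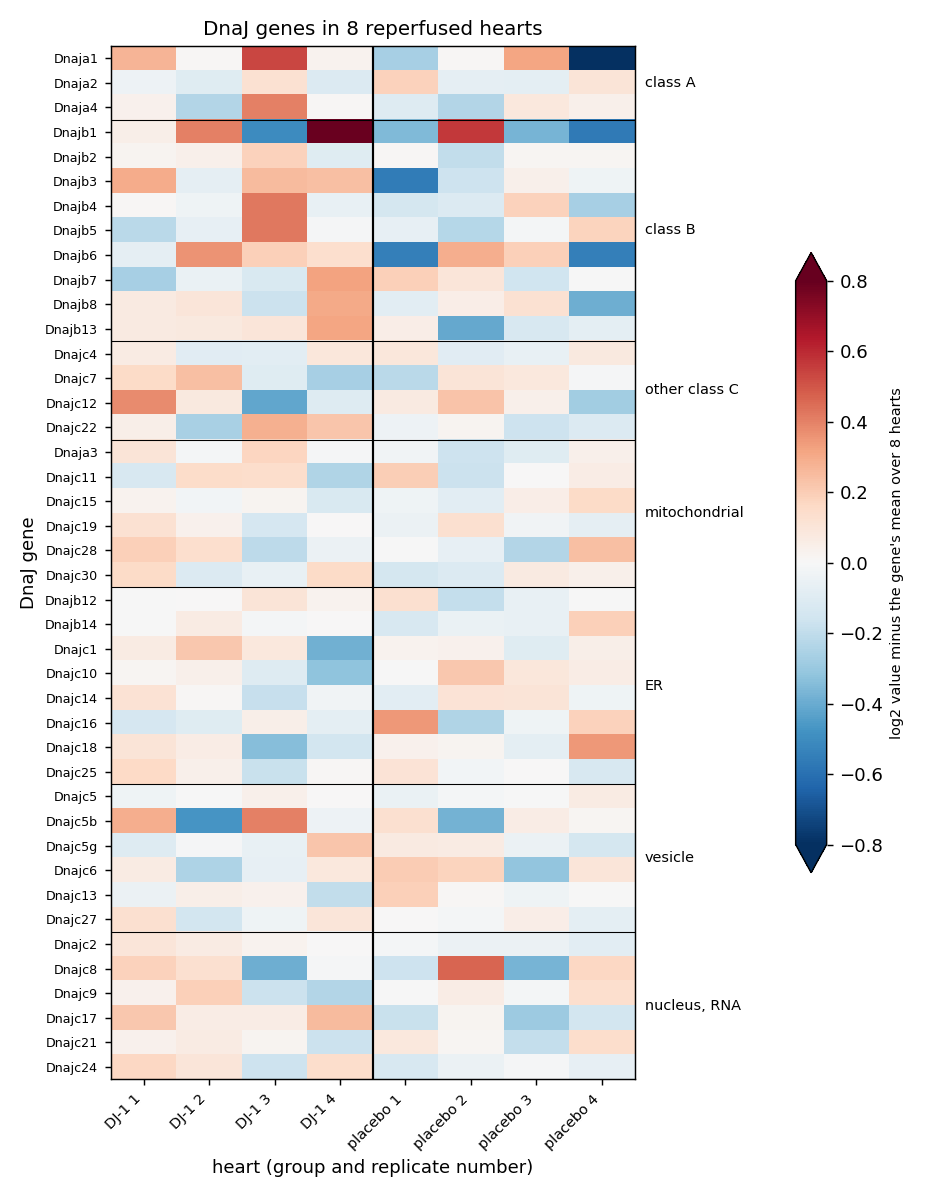
Log2 value of each of the 42 DnaJ genes minus its own mean over the 8 hearts, with genes down the page by role and hearts across, DJ-1 left of placebo; colours end at 0.8 in each direction. Dnajb1 and Dnaja1 show the strongest colours, while the mitochondrial genes stay pale in both groups.

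The class A genes of the cytosol and nucleus encode general partners of HSP70. Dnaja3, also class A by symbol, is counted with the mitochondrial members. Dnaja1, a farnesylated co-chaperone of the cytosol, was at 9.10, 8.83, 9.35 and 8.85 in DJ-1 hearts 1 to 4, against 8.56, 8.83, 9.14 and 7.91 in placebo hearts 1 to 4. The groups overlapped, with placebo heart 4 far below the other hearts. The difference was 0.42 (SE 0.22, 95% confidence interval -0.07 to 0.91, limma adjusted p = 0.824), and 0.19 without placebo heart 4. A second probe set of Dnaja1 differed by 0.10, with placebo heart 3 (7.67) above all DJ-1 hearts (6.73 to 7.22). Another, which also carries the symbol Mir207, differed by 0.22 (SE 0.14) with overlapping groups. The 0.42 is thus the value of the chosen probe set, the largest among these. Dnaja4, a heat-inducible relative, was at 8.79, 8.51, 9.15 and 8.76 in DJ-1 hearts 1 to 4, against 8.65, 8.52, 8.84 and 8.79 in placebo hearts 1 to 4. Only DJ-1 heart 3 lay outside the placebo range on the high side, and the difference of 0.10 (SE 0.13) was -0.01 without that heart. Dnaja2, the remaining class A gene of this group, was at 9.36, 9.31, 9.53 and 9.30 in DJ-1 hearts 1 to 4. Placebo hearts 1 to 4 were at 9.59, 9.33, 9.33 and 9.51, a difference of -0.07 (SE 0.10) with overlapping groups.

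Among the 9 class B genes of the cytosol and nucleus, 8 averaged higher in DJ-1 hearts and 1 lower, where 52.5% of all genes averaged higher. Dnajb12 and Dnajb14, also class B by symbol, are counted with the endoplasmic reticulum group. The median difference of the 9 was 0.17. Of the 9, 6 lay above the background level, Dnajb6 only just, and Dnajb3 and Dnajb13, both counted as higher, did not. Dnajb1, the classical heat-inducible HSP40, was at 7.76, 8.12, 7.21 and 8.50 in DJ-1 hearts 1 to 4, against 7.36, 8.28, 7.34 and 7.15 in placebo hearts 1 to 4. High values came from DJ-1 hearts 2 and 4 and placebo heart 2, and the groups overlapped over most of their range. The difference was 0.37 (SE 0.28, 95% confidence interval -0.25 to 0.99, limma adjusted p = 0.848), 0.17 without DJ-1 heart 4 and 0.62 without placebo heart 2. Its within-group SD of 0.53 was the largest of the family, and 0.943% of all genes had a larger one.

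Dnajb4, a muscle-rich relative of Dnajb1, was at 10.49, 10.45, 10.91 and 10.42 in DJ-1 hearts 1 to 4, against 10.34, 10.38, 10.67 and 10.22 in placebo hearts 1 to 4. Heart 3 was the highest of each group. The difference of 0.17 (SE 0.13) was 0.06 without DJ-1 heart 3. Dnajb5, which binds class II histone deacetylases in heart muscle, was at 7.51, 7.66, 8.15 and 7.72 in DJ-1 hearts 1 to 4, against 7.66, 7.49, 7.71 and 7.90 in placebo hearts 1 to 4. Again DJ-1 heart 3 was the highest, and the difference of 0.07 (SE 0.14) was -0.06 without it.

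Dnajb6, a co-chaperone of the sarcomeric Z-disc whose human mutations cause a limb-girdle muscular dystrophy, was represented by a probe set annotated to a single transcript accession, with a mean of 4.743 beside a background level of 4.741. It stood at 4.67, 5.10, 4.94 and 4.88 in DJ-1 hearts 1 to 4, against 4.20, 5.03, 4.93 and 4.20 in placebo hearts 1 to 4. The low values were those of placebo hearts 1 and 4, and the difference was 0.31 (SE 0.19, 95% confidence interval -0.12 to 0.73, limma adjusted p = 0.832). The other 4 probe sets that carry the symbol Dnajb6 also carry Gm4247, so they name no single gene. They lay between 9.07 and 10.27 and differed by only 0.013 to 0.024.

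The remaining class B genes of the cytosol and nucleus include those known mainly from testis and ciliated cells. Dnajb13, an axonemal protein of sperm and cilia, was at 4.71, 4.71, 4.73 and 4.95 in DJ-1 hearts 1 to 4, against 4.69, 4.22, 4.51 and 4.56 in placebo hearts 1 to 4. Every DJ-1 heart was above every placebo heart, by as little as 0.02 between DJ-1 heart 1 and placebo heart 1, at a level not above background. The difference was 0.28 (SE 0.11, limma adjusted p = 0.824). Dnajb3, a testis gene, was at 3.02, 2.65, 2.97 and 2.96 in DJ-1 hearts 1 to 4, against 2.16, 2.55, 2.76 and 2.68 in placebo hearts 1 to 4, deep within the background, with a difference of 0.36 (SE 0.14, limma adjusted p = 0.824). Dnajb2, a co-chaperone with ubiquitin-interacting motifs, differed by 0.08, Dnajb8 by 0.15 and Dnajb7 by -0.06.

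**Figure D2:**
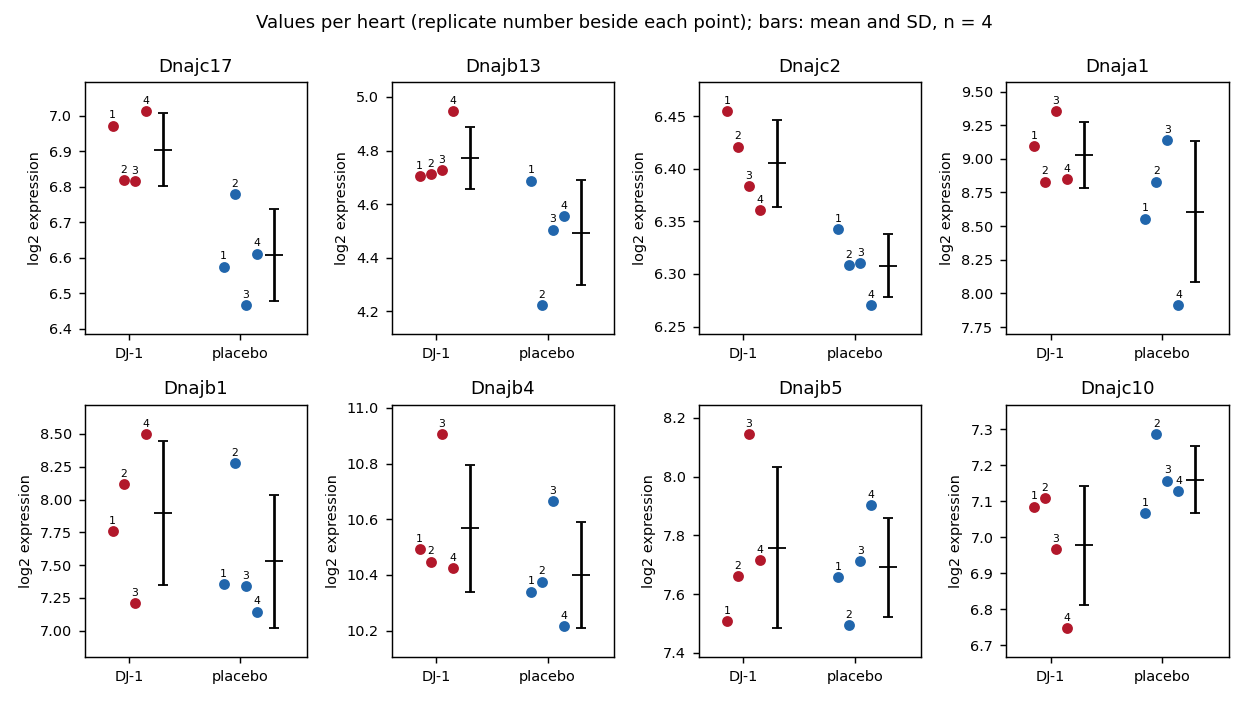
Log2 expression of 8 DnaJ genes in each heart, DJ-1 left of placebo, with replicate numbers beside the points and bars for the mean and SD of 4 hearts. The groups separate for Dnajc17, Dnajb13 and Dnajc2, while for Dnaja1, Dnajb1, Dnajb4, Dnajb5 and Dnajc10 they overlap.

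The promoters of the family were searched for the letters of heat shock elements, the inverted GAA repeats that heat shock factors bind. The search used GAANNTTC and TTCNNGAA as a pair of repeats, and either pair extended by NNGAA or NNTTC to 3 alternating repeats as a triplet, on both strands; a triplet contains overlapping pairs. Windows of 300 bases, from 250 before to 50 after a gene's start, came from RefSeq (GRCm38.p6) and matched 34 of the 42 members, with 47 windows. A pair was found in 17% of these windows and in 15.1% of all 32851 windows. A triplet was found in 2 member windows, both of Dnajb6 and overlapping, and in 0.603% of all windows. The windows of Hspa1a and Hspa1b, the inducible HSP70 genes, each held a pair and no triplet. Pairs also occurred in windows of Dnajc10, Dnajc5g and Dnajc27, and neither window of Dnajb1 held one. These matches describe letters, not binding, and the windows printed were picked for holding them. Shown here are windows of Dnaja1, Dnajb4, Dnaja4 and Dnajb6, with capitals for the matched letters. Dnajb6 has the triplet. Dnaja1, Dnajb4 and Dnaja4 are the members with such letters among the 6 of largest absolute r with Hspa1a over the hearts (given below). Of those 6, Dnajb3, Dnajc18 and Dnajc9 had no match or no window, and r was negative for Dnajc18 and Dnajc9. Whether the letters bear on r was not tested.
Dnaja1 promoter, chr4:40722218-40722517, plus strand, pair from 124 to 117 bases upstream: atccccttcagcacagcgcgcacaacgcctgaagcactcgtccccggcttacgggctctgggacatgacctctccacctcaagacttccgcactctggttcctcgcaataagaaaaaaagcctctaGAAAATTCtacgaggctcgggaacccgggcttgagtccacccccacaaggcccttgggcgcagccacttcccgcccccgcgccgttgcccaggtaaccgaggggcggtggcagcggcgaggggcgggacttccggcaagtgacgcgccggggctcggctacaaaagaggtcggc
Dnajb4 promoter, chr3:152193796-152194095, minus strand, pair from 14 to 7 bases upstream: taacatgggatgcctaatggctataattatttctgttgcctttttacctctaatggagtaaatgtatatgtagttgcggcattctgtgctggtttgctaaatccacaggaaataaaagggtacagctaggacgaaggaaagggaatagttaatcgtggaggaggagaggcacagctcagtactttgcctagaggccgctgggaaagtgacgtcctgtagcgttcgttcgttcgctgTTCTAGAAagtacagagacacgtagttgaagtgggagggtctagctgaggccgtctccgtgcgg
Dnaja4 promoter, chr9:54699309-54699608, plus strand, pairs from 90 to 83 and from 52 to 45 bases upstream: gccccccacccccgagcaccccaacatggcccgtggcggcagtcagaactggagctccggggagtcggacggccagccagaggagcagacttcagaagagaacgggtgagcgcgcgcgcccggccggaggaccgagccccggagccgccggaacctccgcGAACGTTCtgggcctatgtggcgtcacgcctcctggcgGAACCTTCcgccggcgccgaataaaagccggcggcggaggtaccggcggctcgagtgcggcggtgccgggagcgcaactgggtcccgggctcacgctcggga
Dnajb6 promoter, chr5:29735648-29735947, plus strand, triplet from 46 to 34 bases upstream: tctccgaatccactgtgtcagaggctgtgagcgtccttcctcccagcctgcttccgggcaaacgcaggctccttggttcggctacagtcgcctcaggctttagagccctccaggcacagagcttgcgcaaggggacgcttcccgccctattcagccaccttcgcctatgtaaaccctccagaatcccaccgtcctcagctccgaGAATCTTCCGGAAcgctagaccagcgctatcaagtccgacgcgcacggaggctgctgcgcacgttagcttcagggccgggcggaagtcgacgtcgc

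The 6 mitochondrial members differed by -0.05 to 0.12, with a median of 0.022. Dnaja3, the DnaJ of the mitochondrial matrix, which folds and protects proteins there, was at 8.59, 8.47, 8.66 and 8.48 in DJ-1 hearts 1 to 4, against 8.46, 8.32, 8.39 and 8.53 in placebo hearts 1 to 4, a difference of 0.12 (SE 0.09) with overlapping groups. Dnajc19, a subunit of the import motor at the inner membrane whose human mutations cause dilated cardiomyopathy with ataxia, was at 7.05, 6.96, 6.79 and 6.93 in DJ-1 hearts 1 to 4, against 6.88, 7.06, 6.90 and 6.86 in placebo hearts 1 to 4. Its difference of 0.0096 had a 95% confidence interval from -0.20 to 0.22, which covers differences of about that size in either direction. Dnajc15, a relative of Dnajc19 that also restrains respiratory complex I, was at 10.02, 9.97, 10.01 and 9.87 in DJ-1 hearts 1 to 4, against 9.96, 9.91, 10.05 and 10.15 in placebo hearts 1 to 4 (difference -0.05, SE 0.09). Dnajc11, which belongs to the cristae-organising machinery, differed by -0.04, Dnajc28 by 0.03 and Dnajc30, which acts on ATP synthase, by 0.07.

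In the endoplasmic reticulum group, 3 of 8 genes averaged higher and 5 lower in DJ-1 hearts, where 52.5% of all genes averaged higher. Dnajc10, a disulfide reductase of the lumen that helps to degrade misfolded proteins, was at 7.09, 7.11, 6.97 and 6.75 in DJ-1 hearts 1 to 4, against 7.07, 7.29, 7.16 and 7.13 in placebo hearts 1 to 4. The groups overlapped, and DJ-1 heart 4 was the lowest. The difference of -0.18 (SE 0.10, 95% confidence interval -0.41 to 0.05, limma adjusted p = 0.824) was -0.11 without that heart. Dnajc18, a protein of the reticulum membrane, was at 7.24, 7.19, 6.79 and 6.98 in DJ-1 hearts 1 to 4, against 7.16, 7.15, 7.05 and 7.48 in placebo hearts 1 to 4. Its difference of -0.16 (SE 0.13) was -0.07 without placebo heart 4, -0.07 without DJ-1 heart 3 and 0.0023 without DJ-1 hearts 3 and 4, so its direction rested on those hearts. Dnajc16 differed by -0.13, the membrane proteins Dnajb12 and Dnajb14 by 0.06 and 0.03, and Dnajc1, Dnajc14 and Dnajc25 by -0.0076, -0.04 and 0.02.

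The 6 genes of the nucleus, the ribosome and RNA held the member of smallest p. Dnajc17, a splicing-related nuclear protein, was at 6.97, 6.82, 6.82 and 7.01 in DJ-1 hearts 1 to 4, against 6.58, 6.78, 6.47 and 6.61 in placebo hearts 1 to 4. All DJ-1 hearts were above all placebo hearts. The difference was 0.30 (SE 0.10, 95% confidence interval 0.08 to 0.51, unadjusted p = 0.012 and adjusted p = 0.824 in limma), and it stayed between 0.25 and 0.35 when each heart was left out. Dnajc2, the ribosome-bound J protein that receives nascent chains, was at 6.45, 6.42, 6.38 and 6.36 in DJ-1 hearts 1 to 4, against 6.34, 6.31, 6.31 and 6.27 in placebo hearts 1 to 4. These groups did not overlap either, and the difference of 0.10 (SE 0.08, limma adjusted p = 0.864) was small in a gene whose within-group SD of 0.036 was exceeded by 99.8% of all genes. Its SE is larger than this spread alone would give because limma draws each variance towards that of all genes.

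Of the other nuclear genes, Dnajc9, a histone chaperone, was at 6.11, 6.27, 5.91 and 5.85 in DJ-1 hearts 1 to 4, against 6.08, 6.14, 6.06 and 6.21 in placebo hearts 1 to 4, a difference of -0.09 (SE 0.11) with overlap, and 0.067 without DJ-1 hearts 3 and 4. The spliceosomal gene Dnajc8 differed by -0.04 and had the widest spread of this group, from 6.60 to 7.17 in DJ-1 hearts and from 6.62 to 7.46 in placebo hearts. Dnajc21, a factor of ribosome assembly, differed by -0.02, and Dnajc24, which acts in diphthamide synthesis, by 0.12.

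Counted over the family with the chosen probe set of each gene, the 4 DJ-1 and 4 placebo values did not overlap for 3 of 42 members. All 3 were higher in DJ-1 hearts (Dnajc17, Dnajb13 and Dnajc2), where 1.54% of all genes separated in that direction and 1.68% in the other. A Dnajc13 probe set that was not chosen separated the other way, at 6.23 to 6.84 in DJ-1 hearts and 6.85 to 7.01 in placebo hearts (difference -0.32, SE 0.14). It was picked from the 15 of that gene after its values were seen. The count of members was 2 with quantile normalization or cyclic loess and 0 with each array centred on its median. It was 7 without DJ-1 hearts 3 and 4, and 3 to 6 when single hearts were left out, where smaller groups overlap less often by construction. The share of all genes that separated was not counted under these settings, so the counts cannot be set against a background.

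Among the 6 vesicle and endosome genes, Dnajc5 (cysteine-string protein, which guards exocytosis) was nearly constant, at 9.003, 9.03, 9.08 and 9.04 in DJ-1 hearts 1 to 4 and 8.98, 9.02, 9.03 and 9.10 in placebo hearts 1 to 4. Its difference was 0.0053 (95% confidence interval -0.17 to 0.18), and 99.6% of all genes had a larger within-group SD. Dnajc13, an endosomal sorting protein, had 15 probe sets along the gene, and the chosen one differed by -0.08 (SE 0.10). All 15 averaged lower in DJ-1 hearts, with differences of -0.36 to -0.04; they read the same RNA and are not replicates. The auxilin gene Dnajc6 differed by -0.08, Dnajc5b by 0.09, Dnajc5g by 0.02 and the small GTPase gene Dnajc27 by 0.02. Outside these groups, Dnajc4, Dnajc7 (a protein with tetratricopeptide repeats that bridges HSP70 and HSP90), Dnajc12 (a co-chaperone of aromatic amino acid hydroxylases) and Dnajc22 differed by -0.01, 0.02, -0.03 and 0.15.

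**Figure D3:**
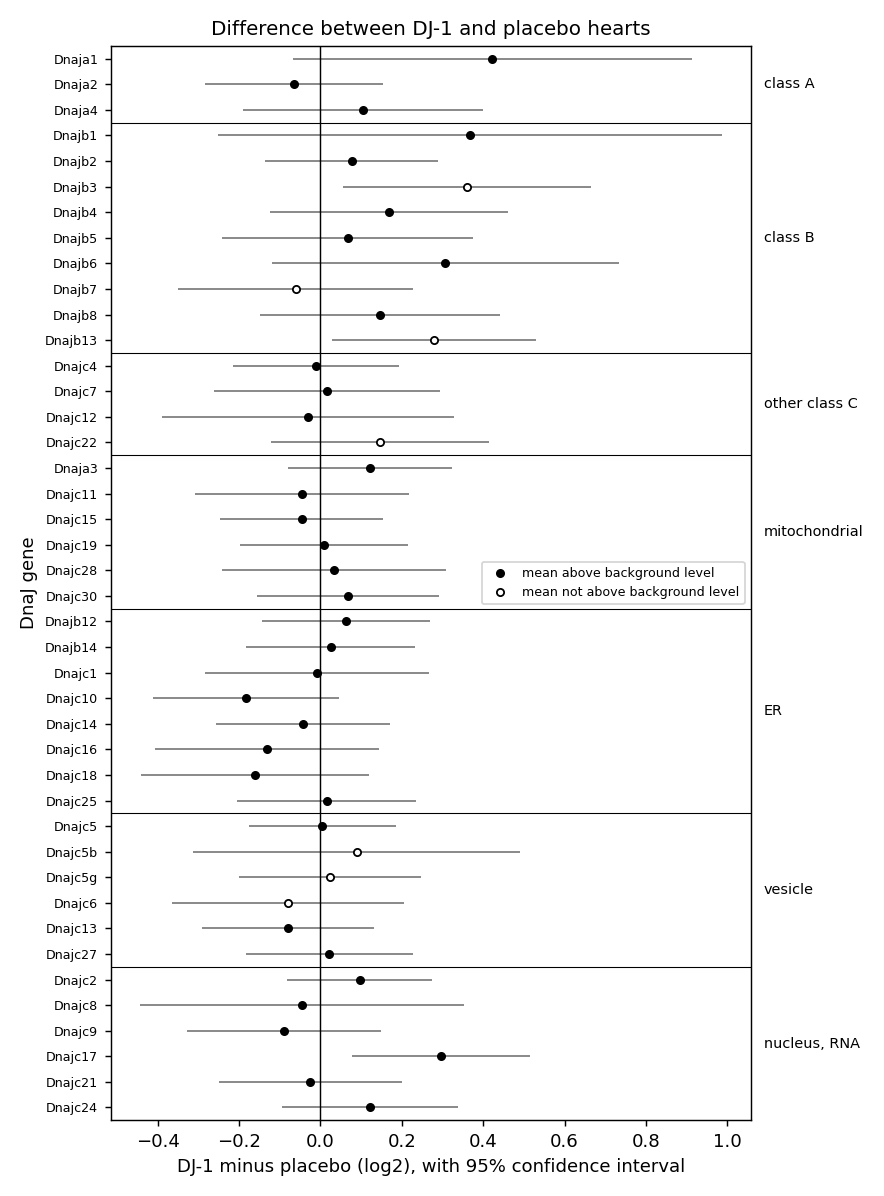
Difference between DJ-1 and placebo hearts (log2, horizontal axis) with its 95% confidence interval for each of the 42 DnaJ genes, grouped by role; open points mark genes whose mean was not above the background level. The intervals of Dnajc17, Dnajb3 and Dnajb13 lie above 0, before adjustment for the number of genes, and all the others include 0.

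The partners of the J proteins set the frame for these values. Of 49 listed genes of the HSP70 and HSP90 systems, small heat shock proteins, chaperonins and heat shock factors, 46 were measured and 0 passed in limma. A higher mean was found for 29, where 52.5% of all genes had one, and a lower mean for 17 (47.5% of all genes). Against 5.99% of all genes, 1 of the 46 had an unadjusted p under 0.05 in limma. This was Hspa1a, the stress-inducible HSP70, at 9.65, 8.76, 10.85 and 10.12 in DJ-1 hearts 1 to 4, against 7.89, 8.92, 10.12 and 8.04 in placebo hearts 1 to 4 (difference 1.11, SE 0.50, limma adjusted p = 0.824). Hspa1b is nearly identical to it and cannot be told apart with certainty on this array. The constitutive partner Hspa8 was at 12.87 to 13.03 in DJ-1 hearts and 12.75 to 12.96 in placebo hearts. Hspb1, Fkbp5 and Hspb3, the next by p, differed by 0.41, 0.48 and 0.19 (limma adjusted p = 0.824 for each), and Hsf1 was not analysed here. Of the 3 J proteins of the reticulum lumen left out of the family, Dnajc3 differed by 0.18, Dnajb9 by 0.02 and Dnajb11 by -0.03.

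Because Hspa1a ranged from 7.89 to 10.85 over the hearts, its covariation with each member was examined over the 8 hearts by exact permutation of the pairings (two-sided), with adjustment over 19937 genes. None of the 42 members passed (0% of all genes did), and the smallest adjusted p was 0.271. At an unadjusted p under 0.05 stood 5 members (11.9%), against 11.8% of all genes (7% with positive and 4.79% with negative r), so the share of the family was near the background. Pearson's r was positive for 21 members and negative for 21, with a median of -0.03, and 0.012 over all genes. After each group's mean was subtracted, 2 members had an unadjusted exact permutation p under 0.05 (4.76%, against 7.42% of all genes). These went in opposite directions, with r of 0.822 for Dnajb4 and -0.84 for Dnajc28.

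Dnajb4 had the highest r with Hspa1a, 0.854 (exact permutation p = 0.00317, adjusted p = 0.271; Spearman's rho 0.786, exact permutation p = 0.0279). It was 0.80 without the 2 hearts farthest from the median of Hspa1a (DJ-1 heart 3 and placebo heart 1), and 0.822 after each group's mean was subtracted. Dnaja1 followed with 0.830 (exact permutation p = 0.00521, adjusted p = 0.275; rho 0.881, exact permutation p = 0.00724), 0.810 without those hearts and 0.763 within groups. Dnajb3, at background level, had 0.792, and Dnaja4 0.674 (exact permutation p = 0.057), which was 0.404 without those 2 hearts.

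On the negative side were Dnajc18 with -0.808 (exact permutation p = 0.011, adjusted p = 0.310) and Dnajc9 with -0.709 (exact permutation p = 0.049, adjusted p = 0.421), and without the same 2 hearts they were at -0.862 and -0.789. For Dnajb1 no relation to Hspa1a was detectable with 8 hearts: r was 0.094 (exact permutation p = 0.818), with rho 0.119, and 0.30 without the same 2 hearts. In DJ-1 heart 3, where Hspa1a was highest of all, Dnajb1 was the lowest of its group, while Dnaja1, Dnaja4, Dnajb4 and Dnajb5 each had their highest value of the 8 hearts. Among the listed partner genes other than Hspa1a, 6 of 45 (13.3%) had an unadjusted exact permutation p under 0.05, all with positive r. Of all genes 11.8% had such a p, 7% with positive r. The list was chosen with earlier results of these data known, and 0 of its genes passed after adjustment (smallest adjusted p = 0.234). Examples picked after their values were seen are Hspa1l with 0.919, Stip1, which links HSP70 to HSP90, with 0.907, and Hsp90aa1 with 0.869. The labels name no batch, so within-batch values could not be had; their sample codes run in one block per group, and if these codes give the processing order, a batch cannot be told apart from the treatment.

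**Figure D4:**
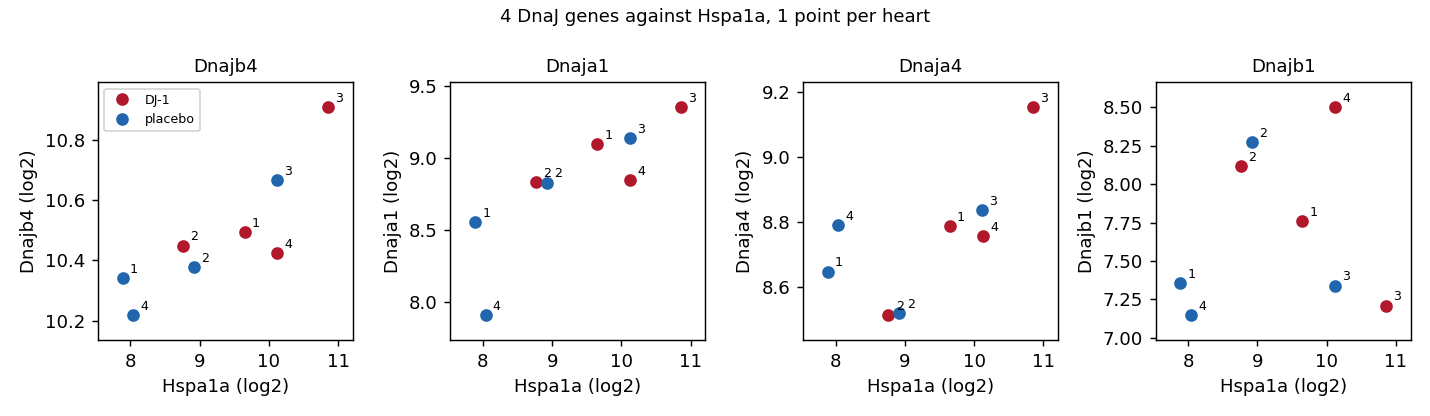
Log2 expression of Dnajb4, Dnaja1, Dnaja4 and Dnajb1 (vertical axes) against Hspa1a (horizontal axis), 1 point per heart with its replicate number, DJ-1 in red and placebo in blue. Dnajb4 and Dnaja1 climb with Hspa1a (r of 0.854 and 0.830), whereas the Dnajb1 points scatter (r of 0.094).

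**Figure D5:**
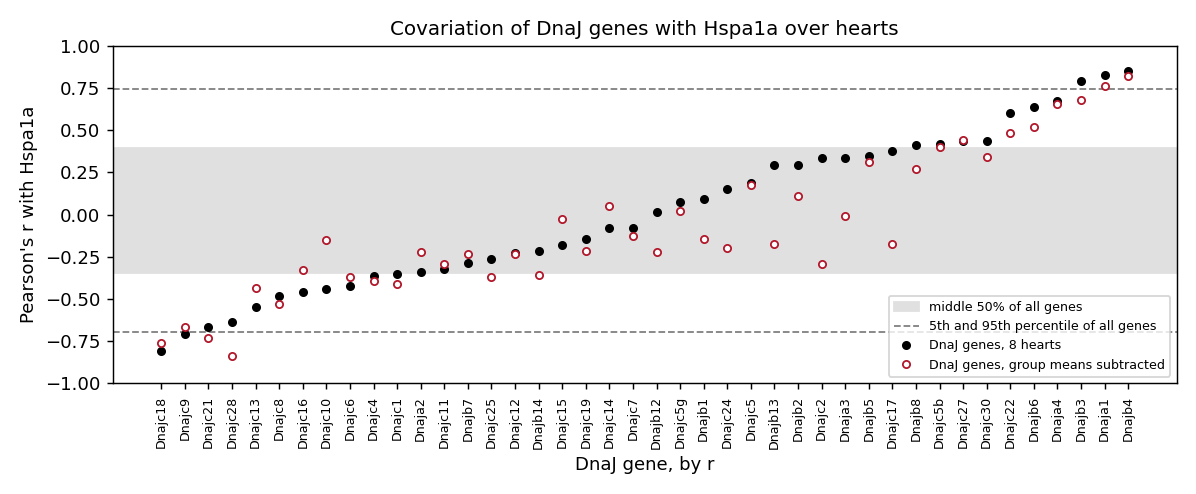
Pearson's r of each DnaJ gene with Hspa1a over 8 hearts (filled points) and after subtracting each group's mean (open points), ordered by r; the band holds the middle 50% of all genes and the dashed lines their 5th and 95th percentiles. The 5th and 95th percentiles are -0.665 and 0.786 for the family and -0.698 and 0.745 for all genes.

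The hearts that held a member's extreme value were spread over both groups. The highest of 8 values fell in DJ-1 heart 1 for 8 members (19%, against 11.7% of all genes), in DJ-1 heart 3 for 8 (19%, against 13.4%) and in placebo heart 3 for 0 (against 8.3%). The lowest fell in DJ-1 heart 4 for 8 members (19%, against 15.5% of all genes) and in DJ-1 heart 1 for 1 (2.38%, against 9.62%). The median within-group SD was 0.15 over the DnaJ genes and 0.17 over all genes, with Dnajb1 (0.53) and Dnaja1 (0.41) at the wide end and Dnajc2 (0.036) and Dnajc5 (0.041) at the narrow end.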

How the data were processed

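Expression was measured on 8 Affymetrix arrays, 4 DJ-1 and 4 placebo, from 100 ng of total RNA with an integrity number above 7, per the labels' protocols. The deposited values are log2 expression of 35556 probe sets made by the authors with RMA, per the submitters' processing notes; no version or genome build is given in the sources used here, and no depth applies to arrays, whose number limits the precision.

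Names came from the platform annotation: 21789 probe sets had 1 symbol, 1621 several and 12146 none. The probe set of highest mean was taken per gene. DJ-1 was compared with placebo over 19938 genes with limma 3.58.1 (lmFit, eBayes, two-sided, Benjamini-Hochberg) in R 4.3.3; p-values measure the spread between these samples, since the labels number the hearts without saying more of their origin. Array correlations over genes were 0.9865 to 0.9942, with 0 identical pairs. Covariation with Hspa1a used all 40320 pairings of 8 hearts, or 576 within groups (Python 3.11.15). Both calculations were tested on simulated data.

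Values per heart are given for members by rule: the 10 of smallest p, those without overlap, the 6 of highest mean, the 6 of largest absolute r with Hspa1a, and Dnajb1, Dnaja1, Dnajb4, Dnajb5, Dnajb6 and Dnajc19. The members, lists, rule and role groups were chosen with earlier results of these data known. Marker lists also covered fibroblasts, endothelium, skeletal muscle, lung epithelium, adipocytes, erythroid cells and testis germ cells. Alternatives changed the scaling, the background filter, the probe set, the variance model, a replicate block and the arrays used.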

Additional observations from a re-analysis of the deposited data

Results flagged for a closer look

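Of the 84 groups of 4 values that the 42 members give, 5 held a heart whose gap to its nearest neighbour took up more of the group's range than Dixon's 95% critical value allows; chance flags about 1 group in 20. Dnajb4 in DJ-1 heart 3 was at 10.91, above the other 3 DJ-1 hearts. Dnajb13 in DJ-1 heart 4 was at 4.95, also above the others, and Dnajb3 in DJ-1 heart 2 was at 2.65, below them. Dnajb2 in placebo heart 2 was at 7.86 and Dnajc1 in placebo heart 3 at 6.86, each below the other placebo hearts.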

How the results depend on the processing

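No DnaJ gene passed an adjusted p of 0.05 in limma, nor in the permutation of Hspa1a, under any of the alternatives run. At an unadjusted p under 0.05 the limma fits had 1 to 5 members. The 5 of 42 came with the replicate block, where 1302 of 19938 genes had such a p. It was 1 of 42 without DJ-1 replicate 4 (848 of all genes) or without both DJ-1 arrays numbered 3 and 4 (911 of all genes). With the background filter it was 1 of 35, against 781 of 13693 genes. The median difference of the members was 0.049 with quantile normalization, 0.049 with cyclic loess, -0.020 with median-centred arrays and 0.050 without both DJ-1 arrays numbered 3 and 4; leaving out each array gave 0.012 to 0.038. The count of members without overlap was 0 with median-centred arrays and 7 without both DJ-1 arrays numbered 3 and 4, and 3 to 6 when each array was left out, with 6 without placebo replicate 3 and 5 without DJ-1 replicate 2, DJ-1 replicate 4 or placebo replicate 4. Smaller groups overlap less often by their construction, and the share of all genes without overlap was not counted under these settings. For the scalings the cause was not tested.

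Of the 18 members given per heart, 6 changed the sign of their difference under an alternative, Dnajc18 (-0.16) and Dnaja4 (0.10) among them. With each array centred on its median Dnajc5 was at -0.037 and Dnajc19 at -0.033. Without both DJ-1 arrays numbered 3 and 4, Dnajc18 was at 0.0023, Dnajc5 at -0.015, Dnaja4 at -0.048, Dnajc9 at 0.067 and Dnajb5 at -0.11. Leaving out each array gave -0.011 to 0.028 for Dnajc5, -0.012 to 0.20 for Dnaja4, -0.062 to 0.15 for Dnajb5 and -0.029 to 0.057 for Dnajc19.

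Whether the replicate numbers pair the hearts is not said in the labels. Same-numbered hearts had correlations of deviations of 0.005, 0.171, 0.177 and 0.008. None of the 4 numbers was matched best by its own partner, but such correlations cannot show that hearts were not handled in pairs. Heart 3 was the highest of each group for Hspa1a, Dnaja1 and Dnajb4, but not for Dnajb1. With the replicate block the count of members past the adjusted threshold was 0, and the median difference was 0.022. At an unadjusted p under 0.05 in limma stood 5 of 42 members, against 1302 of 19938 genes. No exact permutation was run for the covariation with Hspa1a under the replicate block, where the median r was -0.07. With group and replicate means both removed, each r rests only on the 4 differences between same-numbered hearts. Such an r cannot be set beside an r over all hearts. Under the block r was 0.954 for Dnaja1, 0.85 for Dnajb1, 0.538 for Dnajb4 and -0.104 for Dnaja4. The order of these genes differed from that without the block, but 4 differences are too few to rank them.

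The median r of the members with Hspa1a was 0.142 with quantile normalization, 0.088 with cyclic loess and -0.309 with each array centred on its median, beside 0.020, -0.019 and -0.193 over all genes. After each group's mean was subtracted, 2 members had an unadjusted permutation p under 0.05 (4.76%, against 7.42% of all genes), and the smallest p that 576 pairings allow is 0.00174. With 4 hearts a group, the median 95% interval of a member, before adjustment, spans 0.24 to each side, so smaller differences could not be resolved. Larger ones, such as 0.30 for Dnajc17 and 0.42 for Dnaja1, did not pass adjustment either.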

Other observations

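Of the other marker lists, fibroblast genes averaged lower in DJ-1 hearts for 6 of 6 members (median difference -0.125). Endothelial genes did so for 5 of 6 (-0.124), where 47.5% of all genes averaged lower. Erythroid genes were higher for 2 of 2 measured (0.57), where 52.5% of all genes were higher. Skeletal muscle, lung epithelium, adipocyte and testis germ cell lists had median differences of -0.065, 0.033, -0.008 and 0.084. The 3 measured J-domain genes with other symbols, Sec63, Hscb and Gak, differed by -0.11, -0.10 and 0.03. Among the HSP70 partner co-chaperones, the ubiquitin ligase gene Stub1 was lower in every DJ-1 heart, at 8.07, 8.00, 8.05 and 8.05 in DJ-1 hearts 1 to 4, against 8.16, 8.20, 8.20 and 8.13 in placebo hearts 1 to 4 (difference -0.13, limma adjusted p = 0.826); it was picked after its values were seen.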
